A study of Mus musculus with 17 samples.

Results

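The genes described here are 10 markers of fat cells, measured in the extensor digitorum longus (EDL), a mostly fast-fibred leg muscle. They are Adipoq, Plin1, Cidec, Cidea, Lep, Retn, Fabp4, Pck1, Cfd and Lpl, and they were picked by symbol as adipocyte hormones and lipid-droplet genes. All 10 were found among the 36172 gene rows of the table, and all 10 passed the filter on low counts, which left 13965 genes for testing. RNA of 17 aged mice was sequenced, 1 library per animal. The Hand2 group held 7 mice given a Hand2 vector (3 males, 4 females; 4 of 22 and 3 of 23 months), and the empty-vector group held 10 mice (5 males, 5 females; 3 of 22 and 7 of 23 months). The Hand2 gene encodes a transcription factor that sympathetic neurons need to keep their identity. The route, the cells reached, the promoter of the vector and the strain of the mice are not given in the labels. Of the 8 males 2 were 22 months old, and of the 9 females 5 were, so sex and age were partly mixed.

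Fat cells lie between muscle fibres and around the nerve and vessels of a muscle, and they become more frequent with age. They store triglyceride in 1 large droplet whose coat is made of perilipin and CIDE proteins, and they secrete hormones such as adiponectin, leptin and resistin. Sympathetic nerves act on them through beta-adrenergic receptors that release the stored fat. In RNA of a whole muscle, fewer fat cells and less RNA per fat cell cannot be told apart.

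Libraries held 19181208 to 30942818 estimated counts with a median of 26091234, and 3 counts corresponded to 0.097 to 0.156 CPM (counts scaled to a common library size). The tissue label fitted the markers of skeletal muscle and of fast fibres. Myh4, a fast myosin, had a median of 26983 CPM and Acta1, skeletal actin, one of 13698 CPM. Summed over 12 fast-fibre markers, males had 116610 to 145137 CPM and females 116909 to 138934 CPM.

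The members fell into 2 ranges of abundance. Per kilobase of the longest coding transcript, Fabp4 had a median level of 214 CPM and Lpl of 193 CPM, and their ranges over animals overlapped nearly fully (169 to 342 and 171 to 355 CPM per kilobase). Cfd followed at 16.4 CPM per kilobase, then Adipoq at 2.55, Cidec at 1.45, Retn at 1.34, Plin1 at 0.75, Pck1 at 0.631, Cidea at 0.430 and Lep at 0.229 CPM per kilobase. From Cfd downward each gene's range over the 17 animals overlapped that of the next. Fabp4, a fatty acid carrier, and Lpl, the enzyme that frees fatty acids from circulating lipoproteins, are also made outside fat cells: Fabp4 in capillary endothelium and macrophages, Lpl in muscle fibres. Spread between animals followed the same division. The coefficient of variation was 21.1% for Fabp4 and 24.5% for Lpl, against 59.3% to 105% for the other 8 genes. Lep, the lowest per kilobase, had 3 to 132 counts per library, and Cidea had 4 to 49.

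The windows around the start sites of 4 members are shown: that of Adipoq, against which the other genes are set across animals below, and those that held a motif match. They come from RefSeq (GRCm38.p6), run 5′ to 3′ on the gene's strand from 250 bases before to 50 after the start, and 7 of the 10 members had an entry. Capitals mark matches to TTGCNNAA, a motif of the C/EBP factors that drive fat-cell differentiation, searched on both strands. The windows are at chr16:23146286-23146585 (plus strand) for Adipoq, chr7:79732727-79733026 (minus strand) for Plin1, chr6:113434715-113435014 (minus strand, the downstream of 2 start sites) for Cidec and chr6:29059971-29060270 (plus strand) for Lep.
Adipoq: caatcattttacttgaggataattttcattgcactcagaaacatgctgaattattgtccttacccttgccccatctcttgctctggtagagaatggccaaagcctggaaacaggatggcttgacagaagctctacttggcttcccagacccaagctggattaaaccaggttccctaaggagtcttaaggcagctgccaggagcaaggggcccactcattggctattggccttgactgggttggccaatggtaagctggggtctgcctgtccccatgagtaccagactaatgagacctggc
Plin1: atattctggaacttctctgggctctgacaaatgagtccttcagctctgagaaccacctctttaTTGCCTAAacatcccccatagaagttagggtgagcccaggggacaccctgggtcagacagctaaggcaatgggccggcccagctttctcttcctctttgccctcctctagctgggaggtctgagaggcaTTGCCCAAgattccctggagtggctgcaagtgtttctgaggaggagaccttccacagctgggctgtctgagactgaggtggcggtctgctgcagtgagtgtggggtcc
Cidec: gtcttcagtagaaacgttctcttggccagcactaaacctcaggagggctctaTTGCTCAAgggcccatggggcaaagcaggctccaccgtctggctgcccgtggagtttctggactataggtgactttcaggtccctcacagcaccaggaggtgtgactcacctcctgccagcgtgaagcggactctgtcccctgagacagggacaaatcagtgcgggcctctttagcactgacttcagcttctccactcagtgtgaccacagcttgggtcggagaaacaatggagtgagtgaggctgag
Lep: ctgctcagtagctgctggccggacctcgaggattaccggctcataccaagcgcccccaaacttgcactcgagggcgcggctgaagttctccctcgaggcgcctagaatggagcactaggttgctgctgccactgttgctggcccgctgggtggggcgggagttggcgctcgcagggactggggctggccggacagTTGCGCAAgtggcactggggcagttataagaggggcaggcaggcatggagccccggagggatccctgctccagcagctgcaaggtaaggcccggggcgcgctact

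Plin1 held 2 matches, 187 and 58 bases before the start, Cidec 1 match 198 bases before it, and Lep 1 palindromic match 55 bases before it. The window of Adipoq held none, nor did those of Retn, Pck1 and Cfd or the upstream start of Cidec. Of 32851 RefSeq windows of this length 10.8% held the motif. The letters AGGNCA repeated after 1 base, as bound by PPAR and RXR receptors, were in 0.381% of all windows and TATAAA, the TATA box, in 13.6%, and neither was in a window of these 7 genes. A match is a string of letters and not a bound site.

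**Figure D1:**
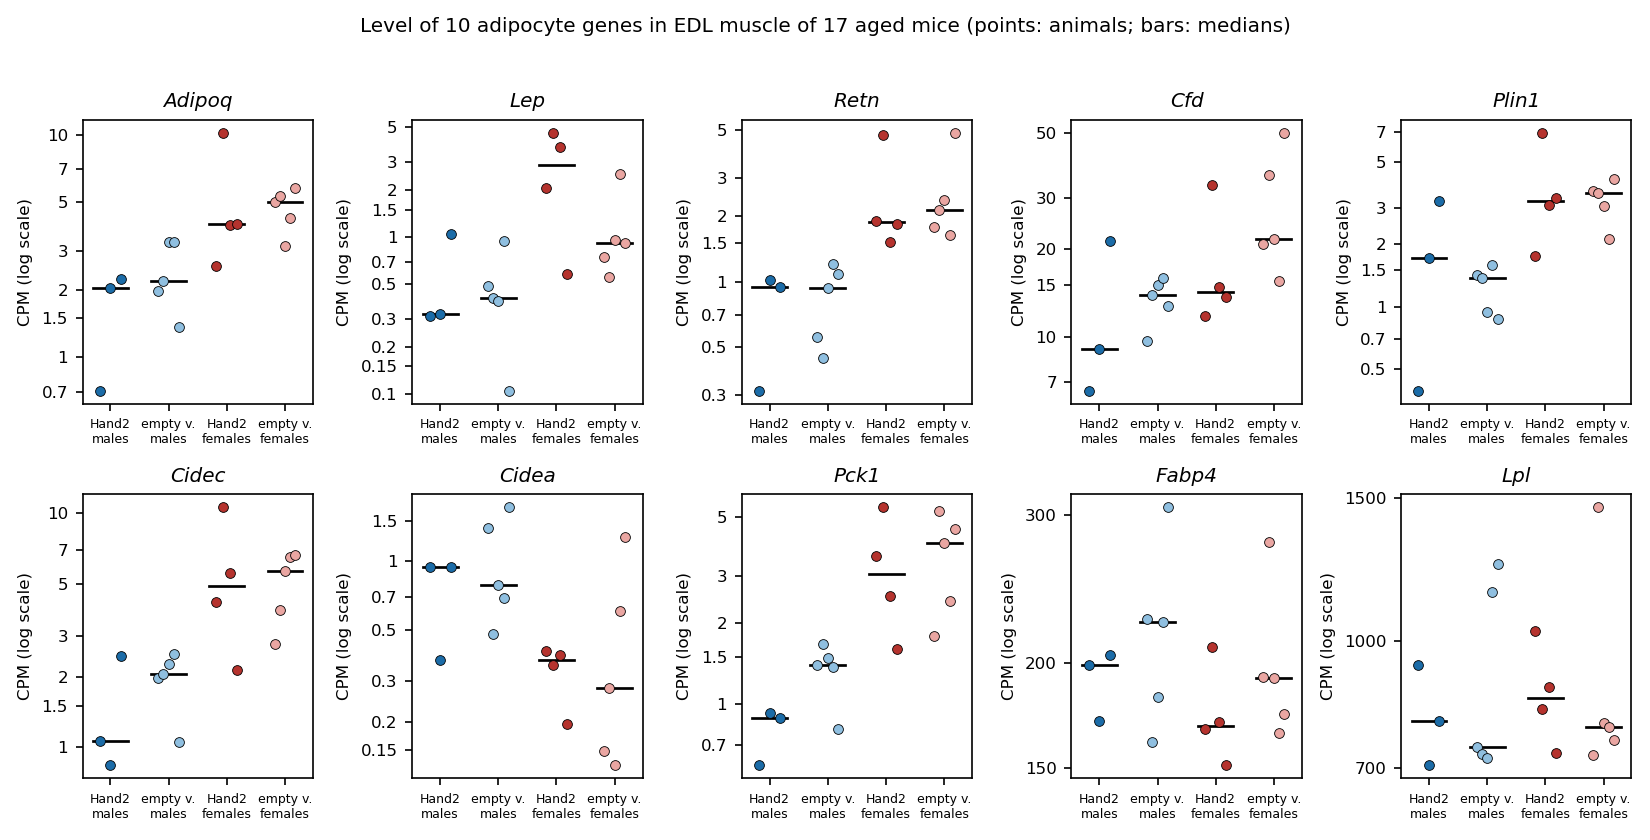
Level of each adipocyte gene in every animal, in CPM on a log axis (a separate scale for each gene), by sex and vector; points are animals and bars are medians. Retn separates all males from all females, while Fabp4, Lpl and both vector groups of every gene overlap.

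All calls among these genes lay between the sexes. In males 6 of the 10 genes were lower and 0 higher (edgeR, adjusted p under 0.05, vector as a second term), where 2.72% of the 13965 genes tested were lower, 2.91% higher and 5.63% either. The 6 were the hormone genes Adipoq, Lep and Retn, the droplet genes Plin1 and Cidec, and Pck1, with fold changes between 0.301 and 0.429. The median log2 fold change of the 10 genes was -1.25, against 0.00 for all genes tested. Cfd, Cidea, Fabp4 and Lpl did not pass. The 10 genes were chosen with earlier results of these data known, so their share is a description and not an independent test.

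Among the hormones, Adipoq (Entrez gene 11450, chromosome 16, 23146536 to 23157968, mm10) encodes adiponectin, which raises insulin sensitivity. Its lowest, median and highest levels were 0.708, 2.12 and 3.31 CPM in males and 2.58, 4.23 and 10.2 CPM in females. The ranges met only between 2.58 and 3.31 CPM. Adipoq averaged 2.14 ± 0.877 CPM in males (SD, n = 8) and 4.91 ± 2.24 CPM in females (SD, n = 9), a log2 fold change of -1.22 ± 0.29 (SE, adjusted p = 0.023 in edgeR).

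Retn (chromosome 8, 3655770 to 3659818) encodes resistin, a hormone that in mice is made by fat cells and opposes insulin. Males had 0.315, 0.941 and 1.20 CPM at the lowest, median and highest, and females 1.52, 1.90 and 4.87 CPM. Every male lay under every female, an arrangement found for 49 of 13965 genes (0.351%). Its log2 fold change was -1.66 ± 0.32 (adjusted p = 0.00438 in edgeR).

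Lep (chromosome 6, 29060221 to 29073876) encodes leptin, the hormone that reports fat stores to the brain. Males had 0.105, 0.401 and 1.05 CPM at the lowest, median and highest, and females 0.558, 0.967 and 4.65 CPM. The ranges overlapped and 3 Hand2 females of 22 months were among the highest. The log2 fold change was -1.73 ± 0.47 (adjusted p = 0.0382 in edgeR), a call that was lost in 11 of 17 fits without 1 animal (adjusted p from 0.0175 to 0.0838) and with an age term (adjusted p = 0.0584).

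Cfd (chromosome 10, 79890853 to 79892656) encodes adipsin, a protease of the alternative complement pathway that fat cells secrete. Males had 6.53, 13.4 and 21.3 CPM at the lowest, median and highest, and females 11.8, 20.9 and 50.2 CPM. Its log2 fold change of -0.90 ± 0.30 (95% interval -1.53 to -0.26) did not pass in edgeR (adjusted p = 0.0946), while DESeq2 and limma-voom each called it (adjusted p = 0.0403 and 0.0454).

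Of the droplet genes, Plin1 (chromosome 7, 79721164 to 79732776) encodes perilipin 1, which coats the droplet and gates lipolysis. Males had 0.393, 1.40 and 3.25 CPM at the lowest, median and highest, and females 1.76, 3.35 and 6.93 CPM. Hand2 replicate 7 was the one male above 1.72 CPM. The log2 fold change was -1.29 ± 0.31 (adjusted p = 0.024 in edgeR).

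Cidec (chromosome 6, 113424636 to 113435755), also called Fsp27, encodes the protein that fuses droplets into the single large one of white fat. Males had 0.835, 2.02 and 2.49 CPM at the lowest, median and highest, and females 2.14, 5.58 and 10.6 CPM. Of the females only Hand2 replicate 5 lay within the male range. Males over females gave a log2 fold change of -1.60 ± 0.31 (adjusted p = 0.00576 in edgeR).

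Cidea, its relative on chromosome 18 (67343564 to 67367794) known from brown and beige fat, went the other way. Males had 0.371, 0.863 and 1.72 CPM at the lowest, median and highest, and females 0.129, 0.352 and 1.28 CPM. With 4 to 49 counts per library its log2 fold change of 1.08 ± 0.40 (95% interval 0.23 to 1.92) did not pass (adjusted p = 0.124 in edgeR). Without empty-vector replicate 5, the highest female, it was 1.52 and passed (adjusted p = 0.0246).

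Among the genes of fatty acid handling, Pck1 (chromosome 2, 173153073 to 173159253) encodes cytosolic PEP carboxykinase, which in fat cells makes the glycerol backbone of triglyceride. Males had 0.59, 1.15 and 1.68 CPM at the lowest, median and highest, and females 1.60, 3.56 and 5.42 CPM. Its log2 fold change of -1.64 ± 0.27 had the smallest adjusted p of the 10 genes (0.00114 in edgeR). Fabp4 (chromosome 3, 10204343 to 10208576) had 161, 201 and 306 CPM in males and 151, 174 and 279 CPM in females, with a log2 fold change of 0.13 ± 0.12 (95% interval -0.13 to 0.40). Lpl (chromosome 8, 68880555 to 68906932) had 705, 771 and 1244 CPM in males and 725, 795 and 1460 CPM in females, with a log2 fold change of -0.03 ± 0.16 (interval -0.36 to 0.31). Neither interval reaches the fold change of any of the 6 genes called.

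**Figure D2:**
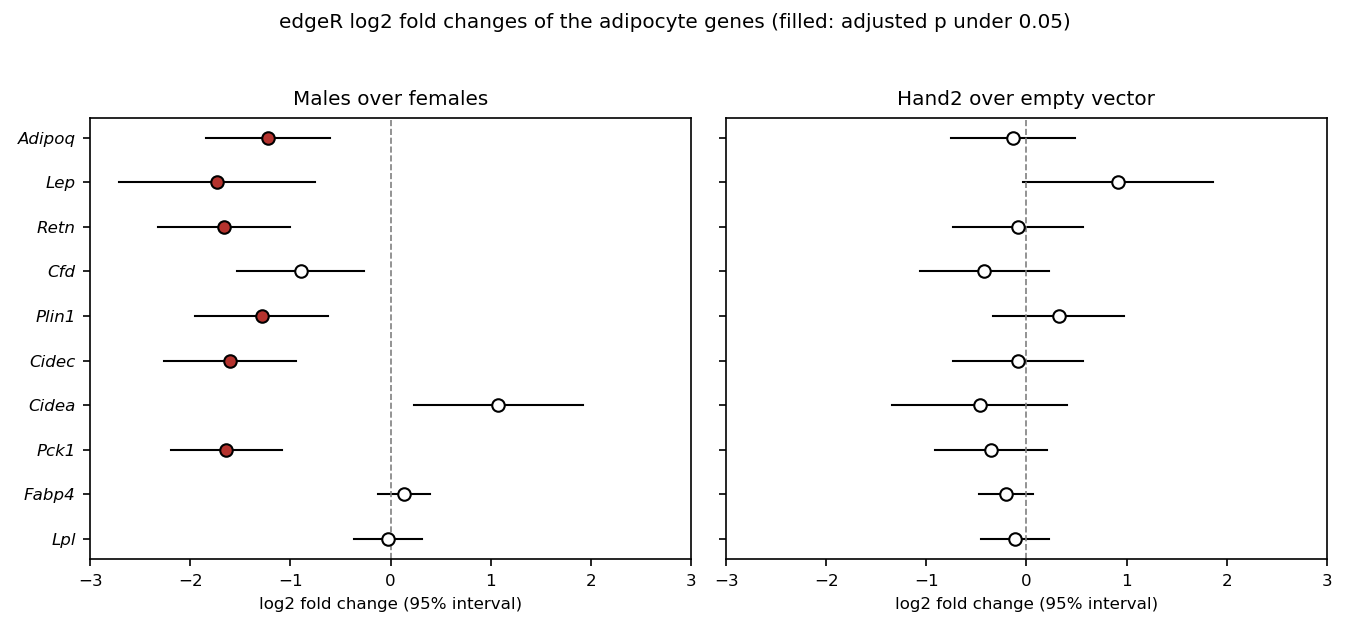
Log2 fold changes of the 10 adipocyte genes with 95% intervals from edgeR, males over females on the left and Hand2 over empty vector on the right; filled points passed an adjusted p of 0.05. The 6 filled points lie between -1.73 and -1.22 in the comparison of sexes, and none is filled in that of vectors.

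The sign of the 6 calls was negative in every alternative fit that could be made, and their adjusted p moved with the animals used. In DESeq2 7 members were lower, Cfd being added, where 4.87% of genes were lower and 9.33% called in either direction, and in limma-voom the same 7, where 3.53% were lower and 7.48% called in either direction. With an age term 5 of the 6 passed, Lep being the exception, where 1.82% of genes were lower. Among 23-month animals (6 males, 4 females) 3 passed: Cidec (-1.25), Retn (-1.67) and Pck1 (-1.18), while Adipoq was at -0.75 (adjusted p = 0.0776), and 1.32% of genes were lower in that fit. Among 22-month animals (2 males, 5 females) 0 passed, in a fit where 0.0847% of genes were lower, and the values of the 6 ran from -3.20 for Lep to -1.76 for Retn. Within the empty-vector group (5 males, 5 females) 2 passed, Plin1 (-1.41) and Cidec (-1.37), where 0.368% of genes were lower. Within the Hand2 group (3 males, 4 females) 0 did, where 0.193% of genes were lower. In the Hand2 group the values ran from -2.35 for Lep to -1.12 for Plin1. Without empty-vector replicates 3, 4 and 5, the 3 females of that group aged 23 months, 2 passed, Retn (-1.50) and Pck1 (-1.71), where 0.896% of genes were lower. The other calls had adjusted p from 0.0572 to 0.181 there.

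Markers of another kind of cell in the muscle also differed between the sexes, where 2.72% of all genes tested were lower in males and 2.91% higher. Of 8 markers of slow muscle fibres 7 were lower in males and 0 higher, with a median log2 fold change of -2.45, and their summed level was 188 to 413 CPM in males and 433 to 1785 CPM in females. For red blood cells 0 of 5 markers were called, with a median log2 fold change of -0.86. Of 14 measured markers of capillary endothelium, 12 of macrophages, 12 of fibro-adipogenic progenitors (the cells that give rise to fat in muscle), 12 of fast fibres and 6 of tendon, 0 were called in either direction. Their median log2 fold changes were 0.22, -0.19, -0.01, 0.09 and -0.04. Summed progenitor markers ran from 1227 to 2508 CPM in males and from 1313 to 2315 CPM in females. Of 8 Schwann cell markers and 2 measured keratinocyte markers 0 were called, and of 6 markers of vascular smooth muscle and pericytes 2 were higher and 0 lower. Krt5 and Krt14, defining keratinocyte genes, had 0 and 1.5 counts over all libraries. Krt10 and Sfn of the same list had medians of 2.82 and 3.03 CPM. Acta2 of the smooth muscle list and Rgcc of the endothelial list also had 0 counts in all 17 libraries. Myh11 of the smooth muscle list had a median of 64.0 CPM, so 0 counts need not mean that a gene was silent. What part the shift in slow-fibre RNA had in the adipocyte values was not tested.

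Further lists held other genes of fat cells and of lipid metabolism. Beside the counts in these lists, 2.72% of all 13965 genes tested were lower in males and 2.91% higher. Of a list of 20 mature adipocyte genes 18 passed the filter on low counts, and of these 2 were lower in males and 0 higher, with a median log2 fold change of -0.44 and 14 of 18 values below 0. Adrb3, the beta-3 adrenergic receptor through which sympathetic nerves start lipolysis in fat cells, was at 0.0732 ± 0.0893 CPM in males (SD, n = 8) and 0.486 ± 0.423 CPM in females (SD, n = 9), with a log2 fold change of -2.73 ± 0.64 (adjusted p = 0.0178 in edgeR). It had 131 counts in all libraries together and 0 in 3 of them. The male mean lay under the level that 3 counts correspond to in any library. The Adrb3 call therefore rests on very few counts in males, and the size of its fold change is uncertain. Adrb3 passed the low-count filter through females, where it was higher, so its direction among the 2 calls carries no separate weight. Slc7a10, an amino acid transporter of white fat cells, was at -1.27 ± 0.35 (adjusted p = 0.0422 in edgeR). Acvr1c, an activin receptor of fat cells, at -0.88 ± 0.30, and Aqp7, the glycerol channel, at 0.58 ± 0.24, did not pass. Gpd1 of this list had a median of 857 CPM, against 3.29 CPM for Adipoq, and its cells of origin were not tested.

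Among 13 regulators of fat-cell differentiation, 2 were lower in males and 1 higher (median -0.13). Cebpd and Cebpb, the C/EBP factors of early differentiation, were at -2.17 ± 0.42 and -1.09 ± 0.26 (adjusted p = 0.00735 and 0.0261 in edgeR). In females they averaged 58.8 and 123 CPM, against 4.91 CPM for Adipoq. Which cells this RNA came from was not tested. Srebf1, the factor that switches on lipid synthesis genes, was at 0.44 ± 0.12 (adjusted p = 0.0421 in edgeR), and Klf15 at -0.61 ± 0.18 did not pass. Of 9 lipolysis genes 1 was lower and 0 higher: Prkar2b, a regulatory subunit of protein kinase A, at -0.82 ± 0.22 (adjusted p = 0.0338 in edgeR). Pnpla2, the first lipase of triglyceride breakdown, at -0.30 ± 0.15, did not pass. Of 13 genes of fatty acid and triglyceride synthesis 0 were called (median -0.05), with Scd1, a desaturase, at -0.89 ± 0.27 (adjusted p = 0.0687 in edgeR). Of 10 other droplet proteins 0 were called (median 0.01), among them Plin4 at -0.86 ± 0.32.

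Of 9 measured genes of brown and beige fat, 1 was higher in males and 0 lower (median 0.10): Prdm16, a factor of beige fat also used outside it, at 0.47 ± 0.11 (adjusted p = 0.024 in edgeR). Tmem26, a beige marker, was at 1.59 ± 0.46 (adjusted p = 0.0505 in edgeR). Ucp1, the uncoupling protein that defines brown fat, had 5 counts over all 17 libraries and 0 in 14 of them, and Elovl3 had 3. Of the 9, Cox8b, Cox7a1, Tbx1 and Ppargc1a had medians of 312, 234, 136 and 40.7 CPM, against 3.29 CPM for Adipoq. Zic1 and Prdm16 had 11.7 and 6.72 CPM, and Dio2, Otop1 and Tmem26 had 2.59, 1.31 and 0.645 CPM. From which cells the RNA of this list came was not tested. Among 10 genes that handle lipoprotein lipase or fatty acid uptake, Vldlr, a receptor for triglyceride-rich lipoproteins, was higher in males at 0.61 ± 0.10 (adjusted p = 0.00104 in edgeR) and 0 were lower. The receptors for adiponectin and leptin (0 of 4 called) and the alternative complement genes (0 of 6) had medians of -0.05 and 0.00. Of 5 genes of gluconeogenesis, 1 was lower, the muscle enzyme gene Fbp2 at -0.91 ± 0.10 (adjusted p = 2.34e-05 in edgeR).

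**Figure D3:**
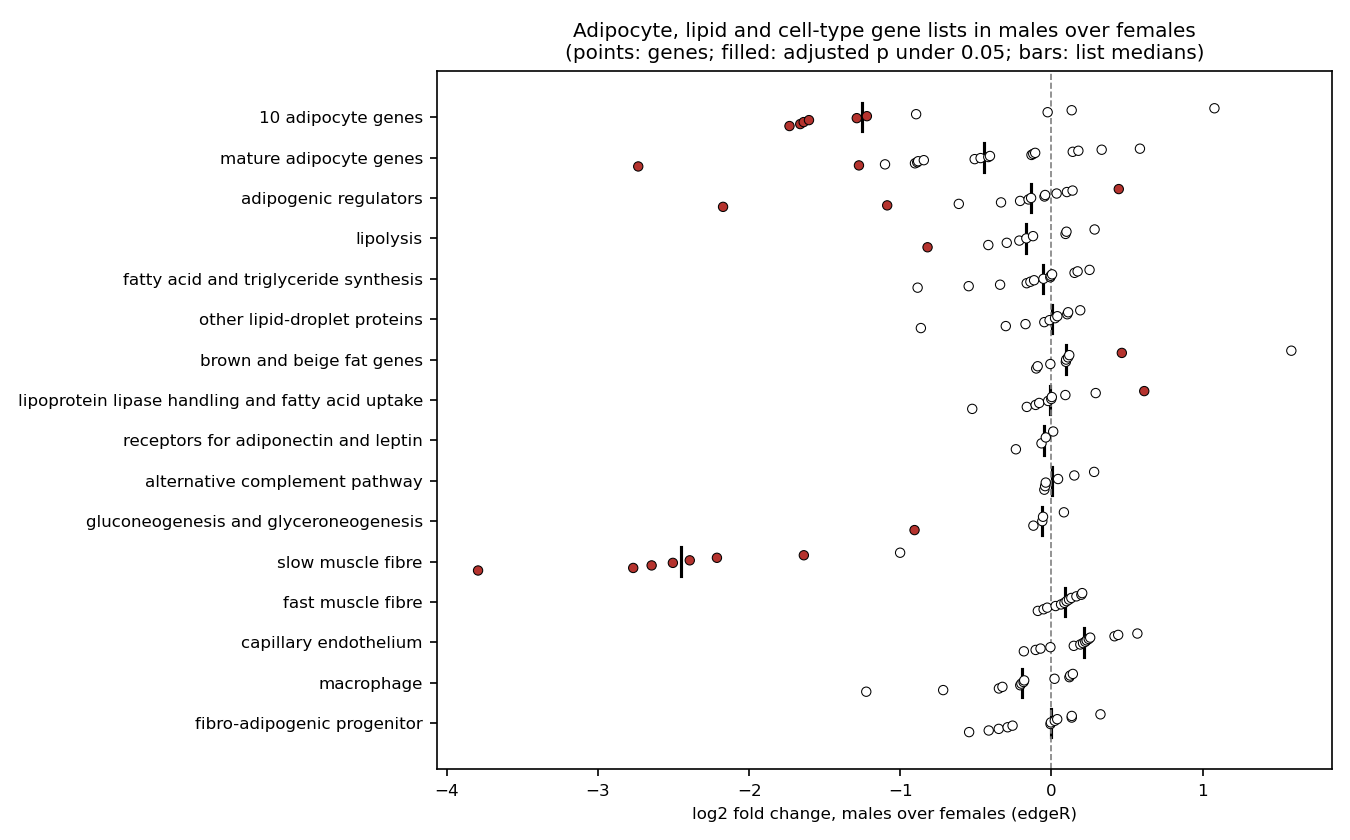
Log2 fold changes of males over females for the 10 adipocyte genes, 10 further lists and 5 cell-type marker lists; points are genes that passed the low-count filter, filled points had an adjusted p under 0.05, and bars are list medians. The 10 adipocyte genes have a median of -1.25 and slow-fibre markers one of -2.45.

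The Hand2 vector did not separate the animals in any of the 10 genes. With sex as a second term 0 of 10 were called in edgeR, as were 0% of all 13965 genes tested, and 0 of the 10 had an unadjusted p under 0.05 (705 of all genes did). DESeq2 and limma-voom likewise called 0 of the 10. Their median log2 fold change was -0.12 with 8 of 10 below 0. The 2 vector groups overlapped in every member, and did not overlap in 0.0215% of all genes.

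Adipoq had 0.708, 2.58 and 10.2 CPM in the Hand2 group at the lowest, median and highest, and 1.37, 3.30 and 5.76 CPM in the empty-vector group. The Hand2 group held both the lowest animal, male replicate 4, and the highest, female replicate 2. The log2 fold change was -0.13 ± 0.29 with a 95% interval of -0.75 to 0.49. For Retn the interval was -0.74 to 0.57, for Plin1 -0.33 to 0.98, for Cidec -0.73 to 0.57, for Cidea -1.34 to 0.40, for Pck1 -0.91 to 0.20 and for Cfd -1.07 to 0.22. Fabp4 and Lpl were bounded more closely, at -0.47 to 0.07 and -0.45 to 0.23.

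Lep had the smallest p of the 10. The Hand2 group had 0.315, 1.05 and 4.65 CPM at the lowest, median and highest, and the empty-vector group 0.105, 0.652 and 2.54 CPM. The log2 fold change of 0.92 ± 0.45 (95% interval -0.03 to 1.86) had p = 0.0572 and an adjusted p = 0.921 in edgeR. The highest Hand2 values were those of the 3 females of 22 months, at 2.07, 4.65 and 3.73 CPM, against 0.747 and 0.558 CPM in the empty-vector females of that age. The Hand2 female of 23 months had 0.583 CPM, against 0.967, 2.54 and 0.924 CPM in empty-vector females of that age. Among 22-month animals the log2 fold change was 2.29 (adjusted p = 0.125) and among 23-month animals -0.27 (adjusted p = 0.912). In the same 3 Hand2 females Adipoq was at 2.58, 10.2 and 3.92 CPM, against 5.002 and 5.302 CPM in the empty-vector females of 22 months, so the high Lep of Hand2 replicates 1 and 3 stood beside Adipoq levels under those of both empty-vector females.

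Within each sex the question was whether the vector moved fat-cell genes in one sex alone. In females 0 of 10 were called (0% of all genes), with a log2 fold change of 1.28 ± 0.56 for Lep (interval 0.11 to 2.46), whose adjusted p was 0.84 in edgeR, and of 0.15 ± 0.37 for Adipoq. In males 0 of 10 were called (0% of all genes), with Lep at 0.25 ± 0.75 and Adipoq at -0.56 ± 0.46. The difference between the effects, in males minus in females, was called for 0 of 10 (0% of all genes), with Lep at -1.03 ± 0.94 (interval -3.02 to 0.95) and Adipoq at -0.70 ± 0.59 (interval -1.95 to 0.54).

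Of the lists of related genes 0 members passed in the comparison of vectors. The median of the mature adipocyte list was -0.07, of regulators 0.03, of lipolysis genes 0.01, of synthesis genes 0.00, of droplet proteins -0.01 and of brown and beige fat genes -0.04, beside 0.00 for all genes. Genes of lipoprotein lipase handling had a median of -0.01, receptors for adiponectin and leptin one of -0.02, alternative complement genes one of 0.15 and gluconeogenesis genes one of 0.06. Among the genes with the smallest unadjusted p were G0s2, an inhibitor of the lipase Pnpla2 (-0.66 ± 0.24), Npr3, the clearance receptor for natriuretic peptides (-0.35 ± 0.14), Fbp2, the muscle enzyme gene named above (0.23 ± 0.10), Apoe, a lipoprotein component (0.23 ± 0.11), and Pparg, the master factor of fat-cell differentiation (-0.32 ± 0.15), each with an adjusted p = 0.921 in edgeR. Pparg averaged 3.62 ± 0.635 CPM in the Hand2 group (SD, n = 7) and 4.52 ± 1.25 CPM in the empty-vector group (SD, n = 10).

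Across the 17 animals 6 of the other 9 genes followed Adipoq. Correlations were taken on log2(CPM + 0.5), with permutation p-values adjusted over the 9 pairs. Animals were permuted across both sexes, so the p-values over 17 animals also carry the difference between the sexes. Plin1 had r = 0.87 and rho = 0.85 (permutation p = 5e-05 and 6e-05, adjusted p = 0.000198 and 0.00054). Retn had r = 0.84 and rho = 0.78 (permutation p = 1e-05, the smallest 100000 permutations can give, and 0.00044, adjusted p = 9e-05 and 0.000792). Cidec, Cfd and Pck1 had r of 0.81, 0.80 and 0.79 and rho of 0.80, 0.78 and 0.79, each with an adjusted permutation p = 0.000198 for r and 0.000742 for rho. Lep followed less closely (r = 0.62, rho = 0.61, permutation p = 0.00722 and 0.0115, adjusted p = 0.0108 and 0.0173).

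Cidea, Fabp4 and Lpl did not pass. Their r was -0.46, -0.13 and -0.09 and their rho -0.48, -0.12 and 0.00, with permutation p-values for r of 0.0632, 0.604 and 0.73 and for rho of 0.0533, 0.638 and 1 (adjusted p = 0.0813, 0.68 and 0.73 for r, and 0.0685, 0.718 and 1 for rho). Without the 2 animals farthest from the median of Adipoq, Hand2 replicates 4 and 2, r was 0.72 for Plin1, 0.72 for Retn, 0.70 for Cidec, 0.71 for Cfd and 0.69 for Pck1. Lep then had r = 0.41 and rho = 0.43 and did not pass (adjusted permutation p = 0.167 for r and 0.17 for rho), and over the 10 empty-vector animals it had r = 0.59 and rho = 0.52 (adjusted permutation p = 0.106 and 0.2).

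Both sexes are pooled in these values, so r was also taken within each. Within the 9 females r with Adipoq was 0.90 for Plin1 (exact permutation p = 0.00265, adjusted p = 0.0239), 0.70 for Cfd, 0.69 for Retn, 0.49 for Cidec, 0.40 for Pck1 and 0.25 for Lep, and Plin1 was the only pair to pass. Within the 8 males r was 0.79 for Pck1, 0.71 for Cfd, 0.70 for Cidec, 0.60 for Retn, 0.58 for Plin1 and 0.54 for Lep, and 0 pairs passed (smallest adjusted p = 0.152, exact permutation). All 12 of these r values were positive, for genes that had passed with the sexes pooled. By rho Lep within females was at -0.07, the only negative value among these pairs. Retn and Cidec within females had a rho of 0.45 and 0.38. Within the 7 Hand2 animals 6 pairs passed by r and 0 by rho, each of the 6 having an adjusted p = 0.0852 for rho (exact permutation), and within the 10 empty-vector animals 5 pairs passed by both.

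**Figure D4:**
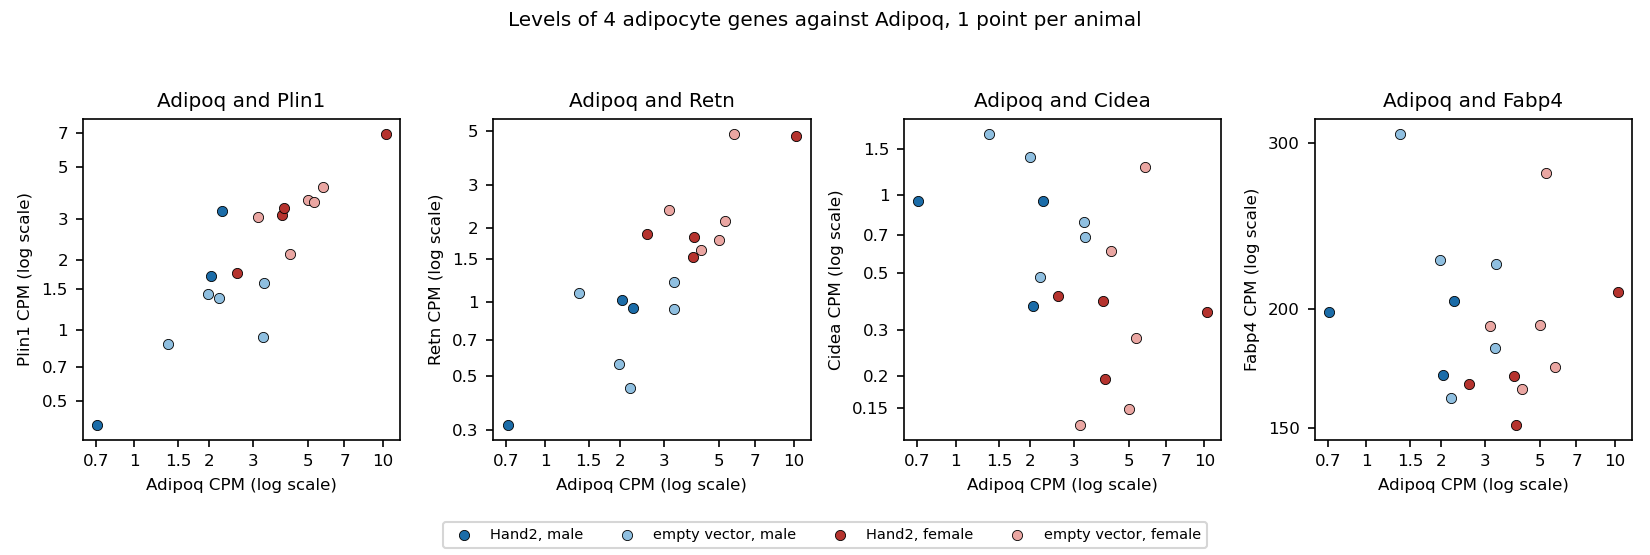
CPM of Plin1, Retn, Cidea and Fabp4 against CPM of Adipoq on log axes, 1 point per animal, coloured by vector and sex. Plin1 and Retn rise with Adipoq (r = 0.87 and 0.84 over 17 animals, sexes pooled), while Cidea and Fabp4 do not (r = -0.46 and -0.13).

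Among 13964 other genes ranked by r with Adipoq over the 17 animals, Plin1 stood at place 2, Retn at 3, Cidec at 5, Cfd at 6, Pck1 at 8 and Lep at 104. Lpl stood at 8529, Fabp4 at 9298 and Cidea at 13241. The 12 genes outside the members with the highest r, listed as a description with no test, were Tmem45b (0.88), Slc1a3 (0.84), Plod2 (0.80), Cdo1 (0.79), Abcc1 (0.78), Prkar2b (0.78), Atp6ap2 (0.77), Tmem41a (0.77), Fgf13 (0.76), Adora2b (0.76), Rbm4 (0.76) and Scd1 (0.76). Slc1a3 encodes a glutamate transporter, Plod2 a collagen lysyl hydroxylase, Cdo1 cysteine dioxygenase and Adora2b an adenosine receptor. Of the 12, 9 were also lower in males at the 5% level in edgeR, where 2.72% of all genes tested were lower. Adipoq was itself lower in males, so genes picked for following it tend to share that difference. Within females their r ran from 0.25 for Plod2 to 0.90 for Prkar2b and within males from -0.12 for Prkar2b to 0.77 for Slc1a3.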

How the data were processed

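EDL muscle RNA of 17 mice was sequenced from TruSeq v2 libraries per the labels' protocols, with mm10 as the genome build per the submitters' processing notes. The authors deposited estimated counts per gene, of which 25.5% to 29.3% of nonzero values per library were whole within 0.001. Aligner, counter and use of strand were not given in the sources used here. Another 17 columns of normalized values were not used. Estimated counts were rounded, since the tests need whole numbers, and 13965 genes passed edgeR's filterByExpr by vector and sex. Tests were edgeR 4.0.16 quasi-likelihood F tests with TMM scaling in R 4.3.3 over all genes, with Benjamini-Hochberg adjustment at 5%. The model was vector plus sex, or 4 vector-by-sex groups for effects within a sex and their difference. CPM were scaled by TMM. Each library is 1 mouse, so p-values measure the spread between mice. Counting intervals and the 3-count floor cover counting error only.

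The fits were tested on simulated data. The alternatives were DESeq2 1.42.0, limma 3.58.1 voom with quality weights, other scalings and filters, an age term, no sex term, single ages and each animal left out. Added after seeing the data were the sex comparison within each age and vector group and all fits without empty-vector replicates 3, 4 and 5. Named genes were all 10 members, up to 4 genes per list with the smallest p in each of 2 comparisons, and the 12 other genes with the highest r with Adipoq. One gene that this rule names is not reported here. Of the listed genes 197 matched by symbol, 2 by an alias and 6 not at all. The members and lists were chosen with earlier results of these data known. Gene coordinates (mm10) are those deposited with the counts, and the windows around start sites are from RefSeq (GRCm38.p6). Transcript lengths are from GENCODE.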

Additional observations from a re-analysis of the deposited data

Results flagged for a closer look

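Of 40 groups of animals examined for a single value far from the others, 11 held one, each the highest of its group. The 5% level of the rule holds for normally distributed values in separate groups. These groups shared animals and held genes that varied together, so 5% is not the rate to expect here. Hand2 replicate 2, a female of 22 months, was far above the others in 3 genes. Its Adipoq of 10.24 CPM compared with 3.986 CPM in the next Hand2 animal and 5.755 CPM in the next female, its Plin1 of 6.933 CPM with 4.121 CPM in the next female, and its Retn of 4.751 CPM with 1.901 CPM in the next Hand2 animal. Hand2 replicate 7 had 3.246 CPM of Plin1, against 1.716 CPM in the next male.

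Empty-vector replicate 5, a female of 23 months, had 4.867 CPM of Retn, against 2.384 CPM in the next empty-vector animal, and 1.279 CPM of Cidea, against 0.6039 CPM in the next female. Empty-vector replicate 4 had 2.545 CPM of Lep, against 0.9665 CPM in the next animal of its group. Empty-vector replicate 2 had 278.7 CPM of Fabp4 and 1460 CPM of Lpl, against 208.7 and 1030 CPM in the next female. Empty-vector replicate 10 had 306.4 CPM of Fabp4, against 225.6 CPM in the next male.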

How the results depend on the processing

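Adipoq, Plin1, Cidec, Retn and Pck1 were lower in males in all 17 fits without 1 animal, and all 6 calls stayed negative in every alternative. The number of genes called between the sexes was 786, against 1276 in DESeq2, 413 in 23-month, 24 in 22-month, 118 in empty-vector and 68 in Hand2 animals, 291 without empty-vector replicates 3, 4 and 5, and 476 to 952 without 1 animal. Upper-quartile scaling gave 514 higher and 270 lower, against 406 and 380. In the comparison of vectors DESeq2 called 1 gene, 7 in females and 1 in males, and fits without 1 animal called 0 to 1, 0 to 1 and 0 to 2. The cause was not tested.

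Signs changed only in values that were not called. Lpl between the sexes was 0.10 with an age term, 0.11 at 22 months, 0.084 at 23 months, 0.017 in empty-vector animals and -0.10 to 0.11 without 1 animal. In the comparison of vectors Cidec was 0.048 with an age term, 0.14 without a sex term, 0.81 at 22 months and 0.12 without the 3 replicates, Retn 0.057 without a sex term, 0.0054 at 22 months and 0.086 without the 3 replicates, and Adipoq 0.060 without a sex term. Plin1 was -0.044 in limma-voom and -0.10 at 22 months, Cidea 0.12 and Pck1 0.017 at 22 months, and Lep -0.27 at 23 months and -0.0084 in males in limma-voom. Without 1 animal the ranges were -0.48 to 0.038 for Adipoq, -0.40 to 0.052 for Cidec, -0.39 to 0.13 for Retn, -0.16 to 0.010 for Lpl, -0.42 to 0.37 for Adipoq in females and -0.52 to 0.64 for Lep in males. Of the 24 other values within a sex or of the difference 15 changed sign in some fit and 0 were called.

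Pairs called with Adipoq were 6, against 1 within females, 0 within males and 5 to 7 without 1 animal. Within females r was 0.20 for Cidea and 0.42 for Fabp4, and Fabp4 had 0.001 within Hand2 animals. Without 1 animal r ran from -0.29 to 0.10 for Fabp4 and from -0.31 to 0.070 for Lpl. Lep and Cidea did not pass a filter of 1 CPM in 7 libraries. No paired analysis was possible because the replicate numbers follow the order of the records and the labels pair no animals.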
